A study of Mus musculus with 18 samples.

Results

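RAW264.7 is a mouse macrophage-like cell line, and the libraries described here are those of its control cells, which carried a control guide RNA, under M2 conditions and without stimulation. They were chosen by the group named in the sample titles and number 6 of the 18 libraries of the series, 3 in each group. The M2 cells had received 4 proteins at once for 48 h, the mouse cytokines IL-4, IL-13 and IL-10 at 20 ng/ml together with human TGF-beta 1 at 2 ng/ml. The M0 cells had been kept for the same 48 h with none of them. Both groups carried the control guide RNA and have the genotype WT in the labels. The series set these cells beside a RAW264.7 line made deficient in the histone demethylase Kdm7a with CRISPR/Cas9, and the 6 M2 and M0 libraries of that line are used here as a second set, as are the 3 libraries of control cells under M1 conditions, interferon gamma at 2 ng/ml with lipopolysaccharide at 0.1 µg/ml. The labels tell control from knockout cells and do not say how many lines or clones stand behind each. The labels do not say whether replicates were separate cultures, so the p-values rest on a spread between libraries that may be technical. Because the 4 proteins were given together, what each one changed cannot be told apart.

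IL-4 and IL-13 bind receptors that share the IL-4 receptor alpha chain and act through Janus kinases on the transcription factor STAT6. IL-10 acts through its own receptor and STAT3, and is known for holding down inflammatory genes in macrophages. TGF-beta binds a pair of receptor kinases that phosphorylate SMAD proteins. Macrophages exposed to such signals are called alternatively activated or M2, and in the mouse they are known for arginase, lectin and scavenger receptors and matrix-modifying proteins.

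Levels are given in TPM, a share of the RNA of a library corrected for gene length, and the depth behind them is unknown; values with ± are means with the SD of 3 libraries. Each library held between 10706 and 10884 genes at 1 TPM or more. Across genes, libraries of a group correlated at r = 0.995 to 0.996 and M2 with M0 libraries at 0.953 to 0.955 (log2(TPM + 1), genes are not independent replicates). Macrophage markers summed to 5072 to 5238 TPM in the M2 libraries and 6419 to 6562 TPM in the M0 libraries, and 5 of their 11 tested genes rose and 4 fell. Most defining markers of other cells were at or near 0: the fibroblast, mast cell, epithelial and NK cell lists each summed to less than 1 TPM in every library, and the T cell genes Cd3e, Cd3g and Cd8a and the B cell gene Ms4a1 were listed at 0 in all 6. The T cell list nevertheless summed to 5.63 to 7.08 TPM in M2 libraries and 12.4 to 13.9 TPM in M0 libraries, of which 2 of 7 members were tested. The kinase gene Lck was not called, and the costimulatory receptor gene Cd28 fell to 1.56 ± 0.23 TPM in M2 cells, against 8.26 ± 0.24 TPM in M0 cells (limma adjusted p = 2.09e-14). Cd79a, a B cell receptor chain, stood at 13.7 ± 0.996 TPM under M2 and 2.13 ± 0.38 TPM without stimulation. The neutrophil list summed to 1.36 to 2.33 TPM in M2 libraries and 0 to 0.420 TPM in M0 libraries, the dendritic cell list to 2.47 to 3 TPM in M2 libraries and 0.820 to 1.03 TPM in M0 libraries, and the endothelial list to 0.630 to 1.13 TPM in M2 libraries and 0.320 to 0.430 TPM in M0 libraries. The part of these markers in the results was not tested. In bulk RNA, fewer cells of a type and less RNA per cell cannot be told apart. Of 21 genes that were below 1 TPM in every M0 library and averaged 300 TPM or more under M1, the median level was 0.0737%, 0.147% and 0.0106% of the M1 level in M2 libraries 1, 2 and 3, and 0.0119% to 0.0345% in the M0 libraries.

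M2 stimulation changed many genes by a little and some strongly. Among 11548 genes tested with limma on log2(TPM + 1), 7557 were called at an adjusted p below 0.05, which is 65.4% of them, with 3279 higher (28.4%) and 4278 lower (37.0%) in M2 than in M0 cells. Of the calls 43.4% were higher, and 50.8% with trimmed-mean scaling factors, so which direction holds the majority depended on the scaling. The median change over all tested genes was -0.05 on the log2 scale. By 2-fold or more, 627 genes were higher (5.43%) and 196 lower (1.70%), and with a pseudocount of 0.1 TPM 320 were lower. The genes that rose by 2-fold took 5.86% to 5.96% of all TPM in the M2 libraries and 1.76% to 1.80% in the M0 libraries, and those that fell took 0.584% to 0.599% in the M2 libraries and 1.64% to 1.70% in the M0 libraries. In 168 of the 627 rises the M0 mean was below 1 TPM, and 29 genes were listed at 0 in all 3 M0 libraries. The falls started from higher levels, with a median of 5.41 TPM in M2 and 16.5 TPM in M0 cells, whereas the rises had medians of 23.8 TPM in M2 and 6.08 TPM in M0 cells. On log2(TPM + 1) a 2-fold fall can only start from at least 1 TPM, while a rise can start from 0. The contrast in starting levels is therefore in part set by the scale. Changes of 3 log2 units or more were found for 62 rises and 6 falls. The M2 and M0 libraries did not overlap in 621 of the 627 rises and 194 of the 196 falls. A lack of overlap in single genes below is therefore the rule for changes of this size. All fold changes below are differences of mean log2(TPM + 1), and for genes of low level they are smaller than the ratio of the TPM. Counts of gene lists are to be read against the shares over all tested genes, 28.4% higher and 37.0% lower.

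**Figure D1:**
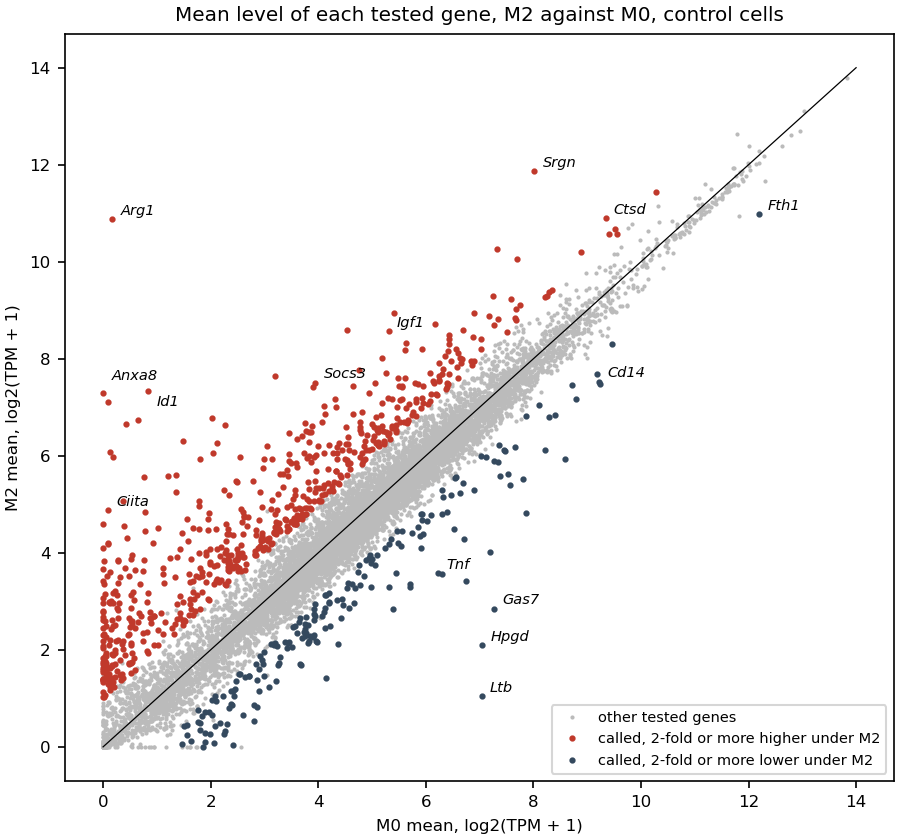
Mean level of every tested gene in control cells, with M2 on the vertical and M0 on the horizontal axis, both as log2(TPM + 1) over 3 libraries. Red points are the 627 genes called 2-fold or more higher under M2 and dark blue points the 196 called 2-fold or more lower; the line marks equal levels. Red points crowd the left edge, where the M0 mean was below 1 TPM, and few dark blue points reach the lower left. On this scale a 2-fold fall cannot start below 1 TPM.

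Most genes rose in a list of receptors for the 4 proteins, related receptors of the TGF-beta family, among them activin and BMP receptors, and Janus kinases. Of 18 tested receptor and Janus kinase genes, 13 rose, 3 fell and 2 were not called, with a median log2 fold change of 0.76; 7 rose by 2-fold or more. Il4ra, which encodes the receptor chain shared by IL-4 and IL-13, had 39.6, 37.3 and 38.5 TPM in M2 libraries, against 4.53, 3.48 and 3.40 TPM in M0 libraries. Jak2, which encodes a Janus kinase, had 92.0, 88.9 and 90.5 TPM in M2 libraries, against 12.2, 12.5 and 13.3 TPM in M0 libraries. Tgfbr1, which encodes the kinase chain of the TGF-beta receptor that acts on SMAD proteins, had 138, 131 and 138 TPM in M2 libraries, against 35, 35.4 and 35.1 TPM in M0 libraries. In all 3 genes the M2 libraries lay above the M0 libraries without overlap. Il4ra rose by 3.05 ± 0.081 log2 units (SE, limma adjusted p = 3.39e-17), Jak2 by 2.75 ± 0.039 (adjusted p = 2.19e-21) and Tgfbr1 by 1.92 ± 0.055 (adjusted p = 9.83e-17). Il13ra2, the IL-13 receptor often described as a decoy, reached 5.92 ± 1.1 TPM under M2 and 0.857 ± 0.28 TPM without stimulation. Eng, an accessory receptor for the TGF-beta family, reached 2.71 ± 0.25 TPM under M2 and 0.333 ± 0.021 TPM without stimulation, and Jak3, the partner kinase of the common gamma chain, 18.5 ± 0.87 TPM under M2 and 6.70 ± 1.1 TPM without stimulation. Il10ra, the ligand-binding IL-10 receptor chain, rose by less, 0.93 ± 0.045 (SE, limma adjusted p = 5.30e-13), with 44.2 ± 0.60 TPM under M2 and 22.8 ± 1.4 TPM without stimulation. Tgfbr2, the receptor chain that binds TGF-beta, fell by 0.25 log2 units, with 46.8 ± 1.4 TPM under M2 and 56.0 ± 0.82 TPM without stimulation, and Il13ra1 was not called at 72.4 ± 1.1 TPM under M2 and 73.0 ± 6.2 TPM without stimulation. These last 3 genes were chosen after their values were seen, to cover each ligand's own receptor.

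**Figure D2:**
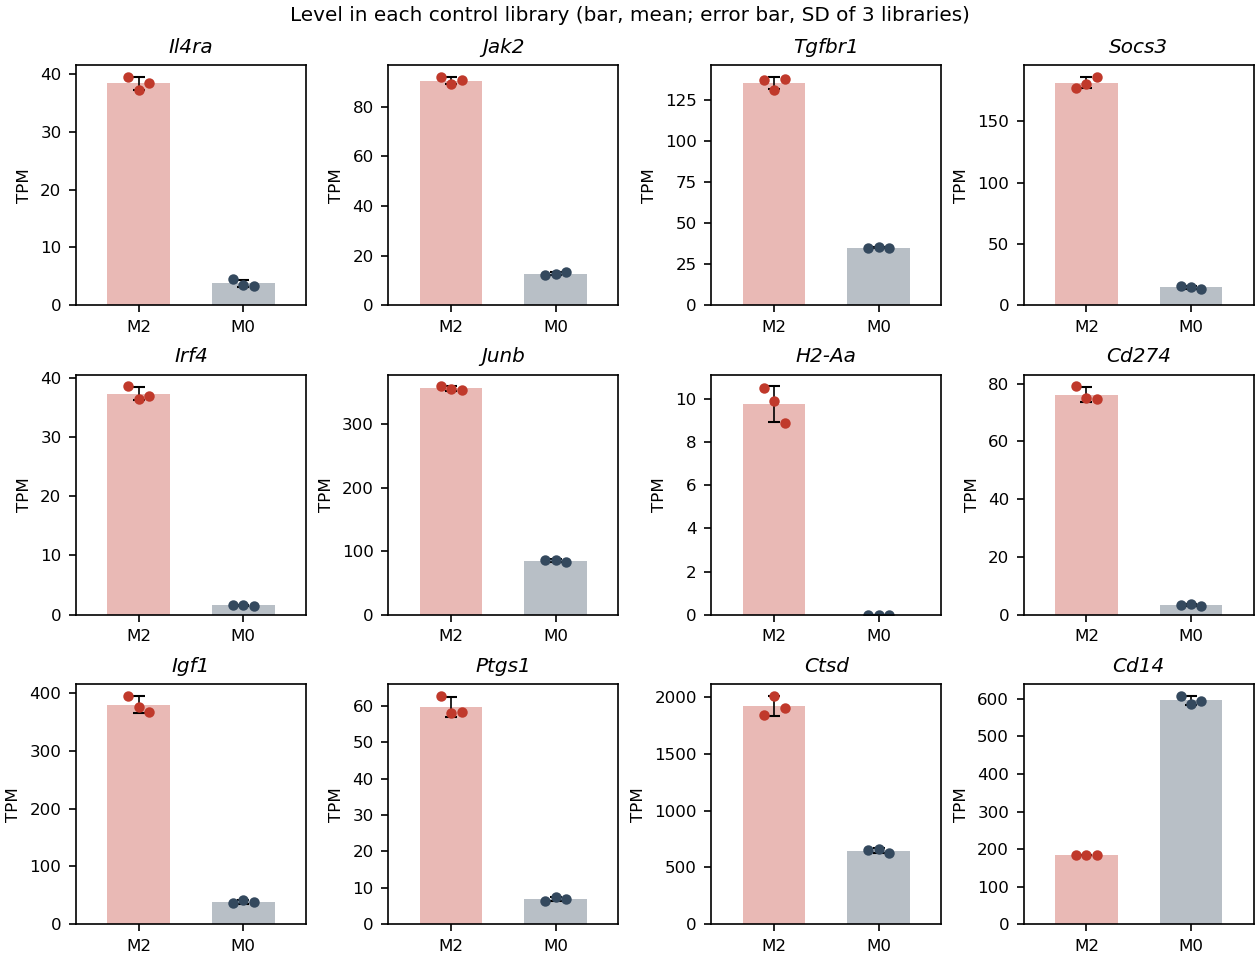
Level in TPM of 12 genes in the 3 M2 libraries (red) and 3 M0 libraries (dark blue) of control cells, 1 panel a gene, with bars for the mean, error bars for the SD and points for the libraries. In 11 panels all M2 points lie above all M0 points, and in the panel of Cd14 they lie below.

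The transcription factors that carry the signals had a median change near 0. Of 19 tested STAT, SMAD and IRF genes 8 rose, 5 fell and 6 were not called, with a median of 0.053. Irf4, a factor induced by IL-4 in macrophages, was the largest change: it had 38.6, 36.5 and 36.9 TPM in M2 libraries, against 1.67, 1.59 and 1.47 TPM in M0 libraries. All 3 M2 libraries were above the M0 libraries. Irf4 rose by 3.90 ± 0.089 log2 units (SE, limma adjusted p = 2.77e-18). Stat3, the factor of IL-10 signalling, stood at 74.4 ± 0.73 TPM under M2 and 36.4 ± 0.94 TPM without stimulation, and Stat5a at 32.0 ± 0.066 TPM under M2 and 19.7 ± 1.1 TPM without stimulation. Stat6 itself, named after its values were seen, stood at 130.3 ± 3.2 TPM under M2 and 97.8 ± 2.3 TPM without stimulation (log2 fold change 0.41 ± 0.034 SE, limma adjusted p = 2.69e-09). Smad3, a receptor-activated SMAD, moved the other way: it fell to 1.59 ± 0.11 TPM in M2 cells, against 6.30 ± 0.46 TPM in M0 cells (log2 fold change -1.50 ± 0.088 SE, limma adjusted p = 1.03e-11). Irf8, a factor of monocyte identity, fell to 32.9 ± 0.68 TPM in M2 cells, against 66.8 ± 2.0 TPM in M0 cells, while Irf5, associated with inflammatory activation, rose to 207 ± 4.0 TPM in M2 cells, against 133 ± 3.2 TPM in M0 cells. With trimmed-mean scaling factors the count of this list was 9 higher and 3 lower.

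Some genes of feedback inhibitors of cytokine signalling were among the strongest responders. Of 22 tested feedback inhibitors 13 rose, 5 fell and 4 were not called, with a median of 0.19. The 8 that rose by 2-fold or more included inhibitors of Janus kinase signalling and of SMAD signalling. Cish, which encodes a STAT-induced SH2 protein, had 144, 134 and 133 TPM in M2 libraries, against 0.0600, 0.140 and 0 TPM in M0 libraries. Socs1, which encodes an inhibitor of Janus kinases, had 111, 103 and 102 TPM in M2 libraries, against 0.520, 0.610 and 0.570 TPM in M0 libraries. Socs3, which encodes another suppressor of cytokine signalling, had 177, 180.1 and 186 TPM in M2 libraries, against 15.4, 14.4 and 13.4 TPM in M0 libraries. Each M2 library of these 3 genes exceeded each M0 library. Cish rose by 7.02 ± 0.064 log2 units (SE, limma adjusted p = 3.03e-24), Socs1 by 6.08 ± 0.098 (adjusted p = 7.33e-20) and Socs3 by 3.57 ± 0.054 (adjusted p = 1.02e-20). On the TGF-beta side, Pmepa1 had 68.4, 65.6 and 67.0 TPM in M2 libraries, against 0.110, 0.160 and 0.0200 TPM in M0 libraries; its product holds back receptor-activated SMADs. Smad7, which encodes the inhibitory SMAD, had 4.91, 5.13 and 5.05 TPM in M2 libraries, against 0.490, 0.360 and 0.520 TPM in M0 libraries. Skil, which encodes SnoN, a SMAD corepressor, had 99.95, 92.5 and 93.4 TPM in M2 libraries, against 27.5, 25.1 and 26.4 TPM in M0 libraries. None of these groups overlapped either. Pmepa1 rose by 5.96 ± 0.088 log2 units (SE, limma adjusted p = 4.25e-21), Smad7 by 2.05 ± 0.085 (adjusted p = 4.14e-14) and Skil by 1.82 ± 0.056 (adjusted p = 2.92e-16).

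STAT proteins bind palindromes of the form TTCNNNGAA, and STAT6 favours the form with 4 free bases, TTCNNNNGAA. The windows of 250 bases before to 50 after the annotated start (RefSeq, GRCm38.p6) were searched for both and for GTCTAGAC, a palindrome known to be bound by SMAD proteins; each reads the same on either strand. A start is that of the transcript behind the entry, which may lie inside the gene. A promoter entry was at hand for 20 of the largest rises and list leaders, of which 3 held TTCNNNGAA, 2 held TTCNNNNGAA and 1, Ltb4r1, held GTCTAGAC. Others had no entry and could not be searched, among them Arg1, Tgm2, Id1, Pmepa1, Ciita and Smad7. These 30-base stretches, on the strand of the gene and with the match in capitals, show where the matches lie. The genes are members of the lists of feedback inhibitors, IL-10 targets and IL-4 targets.
Cish at base 1: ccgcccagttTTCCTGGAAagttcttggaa
Cish at base 12: tcctggaaagTTCTTGGAAatctgtcaaag
Socs3: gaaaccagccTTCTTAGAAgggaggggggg
Sbno2, a promoter: gccgcgccccTTCGCAGAAgcggaagtgcg
Sbno2, other promoter: ccggctctgcTTCCCGGAAtgcctgtgagt
Pdcd1lg2: catgctccagTTCCTCAGAAaccattctgg
Cd36: gtgatgggtcTTCACCAGAAatagaccctt
Cish held a tandem pair of TTCNNNGAA matches at bases 1 and 12 counted from its start (chr9:107296649-107296678 and chr9:107296660-107296689, plus strand). The Socs3 match began 154 bases before a start that lies 970 bases inside the outermost bounds of the gene (chr11:117969501-117969530, minus strand). Those of Sbno2 began 26 and 24 bases before 2 alternative starts, 3406 and 4921 bases inside the gene (chr10:80102709-80102738 and chr10:80101192-80101221, minus strand). The longer form stood 82 bases before the start of Pdcd1lg2 (chr19:29410827-29410856, plus strand) and at base 21 of a Cd36 transcript that starts 53063 bases inside the gene (chr5:17835857-17835886, minus strand). GTCTAGAC began 242 bases before the start of Ltb4r1. Such matches were common: TTCNNNGAA was found in 8.81% of 477 genes with a 2-fold rise and a promoter entry, in 8.42% of 8784 tested genes and in 9.55% of all 27025 genes with an entry. TTCNNNNGAA was found in 6.71%, 6.57% and 8.01% of the same sets, and GTCTAGAC in 0.419%, 0.296% and 0.248%. A match is a description of the letters only.

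Targets of IL-4 and IL-13 formed the list with the highest median. Of 39 listed genes 23 passed the filter of 1 TPM in at least 3 libraries; of these 21 rose, 0 fell and 2 were not called, 18 by 2-fold or more, and the median was 2.93. The remaining 16 stayed below the filter, and 7 of them were listed at 0 in all 6 libraries. A gene near 0 in M0 cells could pass the filter only through its level in another group, so the counts and medians of lists describe the members that passed and not all members. Arg1 had 1831, 1941 and 1857 TPM in M2 libraries, against 0.340, 0 and 0.0700 TPM in M0 libraries; arginase 1 turns arginine into ornithine. Tgm2 had 70.7, 86.6 and 77.6 TPM in M2 libraries, against 2.04, 1.72 and 1.65 TPM in M0 libraries; transglutaminase 2 cross-links proteins. Every M2 library exceeded every M0 library for both genes. Arg1 rose by 10.70 ± 0.53 log2 units (SE, limma adjusted p = 1.08e-09) and Tgm2 by 4.82 ± 0.098 (adjusted p = 9.97e-18). Mgl2, which encodes a galactose-type lectin, had 13.4, 12.5 and 14.1 TPM in M2 libraries, against 0.280, 0.150 and 0.210 TPM in M0 libraries. Myc, which encodes a growth factor-induced transcription factor, had 14.7, 15.5 and 13.7 TPM in M2 libraries, against 0.460, 0.640 and 0.280 TPM in M0 libraries. The groups were again apart. Mgl2 rose by 3.56 ± 0.087 log2 units (SE, limma adjusted p = 8.15e-18) and Myc by 3.43 ± 0.081 (adjusted p = 5.10e-18). Mrc1, the mannose receptor and a standard M2 marker, stayed low at 1.69 ± 0.060 TPM under M2 and 0.120 ± 0.044 TPM without stimulation (log2 fold change 1.27 ± 0.083 SE, limma adjusted p = 5.95e-11), and its lectin relative Clec10a hardly differed at 26.1 ± 1.7 TPM under M2 and 22.5 ± 0.98 TPM without stimulation (adjusted p = 0.0459 by limma). The call of Clec10a did not hold in several alternatives, without M2 library 2 for example (adjusted p = 0.155). Chil3 and Retnla were listed at 0 in all 6 libraries, as was Ccl22, and Ccl17 and Cd163 stayed below 1 TPM.

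Among 23 tested genes known to respond to IL-10, 17 rose, 4 fell and 2 were not called, with a median of 1.25. Bcl3, which encodes a nuclear IkB protein that dampens NF-kB, had 43.8, 43.5 and 43.1 TPM in M2 libraries, against 3.90, 4.74 and 5.17 TPM in M0 libraries. Timp1, which encodes an inhibitor of matrix metalloproteinases, had 20.7, 22.4 and 22.3 TPM in M2 libraries, against 2.04, 2.44 and 2.08 TPM in M0 libraries. Sbno2, which encodes a helicase-like corepressor of the IL-10 response, had 176, 171 and 167 TPM in M2 libraries, against 24.3, 24.8 and 23.2 TPM in M0 libraries. No library of one group reached into the other. Bcl3 rose by 2.995 ± 0.069 log2 units (SE, limma adjusted p = 3.56e-18), Timp1 by 2.84 ± 0.094 (adjusted p = 1.08e-15) and Sbno2 by 2.78 ± 0.043 (adjusted p = 6.73e-21). Msr1, the class A scavenger receptor, stood at 65.6 ± 2.4 TPM under M2 and 12.4 ± 0.83 TPM without stimulation, and the haem oxygenase gene Hmox1, just under 2-fold, at 216 ± 5.7 TPM under M2 and 108 ± 2.8 TPM without stimulation. The members that fell by most were the endotoxin coreceptor Cd14, which had 185, 183 and 184 TPM in the M2 libraries and 608, 586 and 595 TPM in the M0 libraries, and the high-affinity IgG receptor Fcgr1 at 27.7 ± 0.39 TPM under M2 and 82.7 ± 2.8 TPM without stimulation. Their log2 fold changes were -1.69 ± 0.032 (SE, limma adjusted p = 1.43e-19) and -1.54 ± 0.030 (SE, limma adjusted p = 2.19e-19). Il10 itself was not called at 0, 0.0900 and 0.150 TPM by library under M2 and 0.1, 0 and 0 TPM by library without stimulation (limma adjusted p = 0.715).

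Of 31 tested TGF-beta targets, 6 fell, 5 were not called and the other 20 rose, with a median of 0.74. By 2-fold or more 13 rose and 1 fell, and 15 of the 46 listed genes stayed below the filter. The members named here are all from those that rose. Id1, which encodes an inhibitor of helix-loop-helix factors that is a textbook SMAD target, had 153, 161 and 167 TPM in M2 libraries, against 0.830, 0.580 and 0.980 TPM in M0 libraries. Itgav, which encodes the integrin chain that takes part in activating latent TGF-beta, had 77.7, 68.5 and 73.2 TPM in M2 libraries, against 14.9, 14.7 and 15.5 TPM in M0 libraries. The M2 libraries were higher without overlap for both. Id1 rose by 6.50 ± 0.11 log2 units (SE, limma adjusted p = 3.88e-20) and Itgav by 2.21 ± 0.066 (adjusted p = 2.18e-16). Tgfbi, a secreted matrix protein named for its induction by TGF-beta, had 10.4, 10.8 and 10.3 TPM in M2 libraries, against 0.05, 0.0800 and 0.0400 TPM in the M0 libraries. The cell cycle inhibitor gene Cdkn1a reached 375 ± 20.4 TPM under M2 and 224 ± 9.4 TPM without stimulation.

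**Figure D3:**
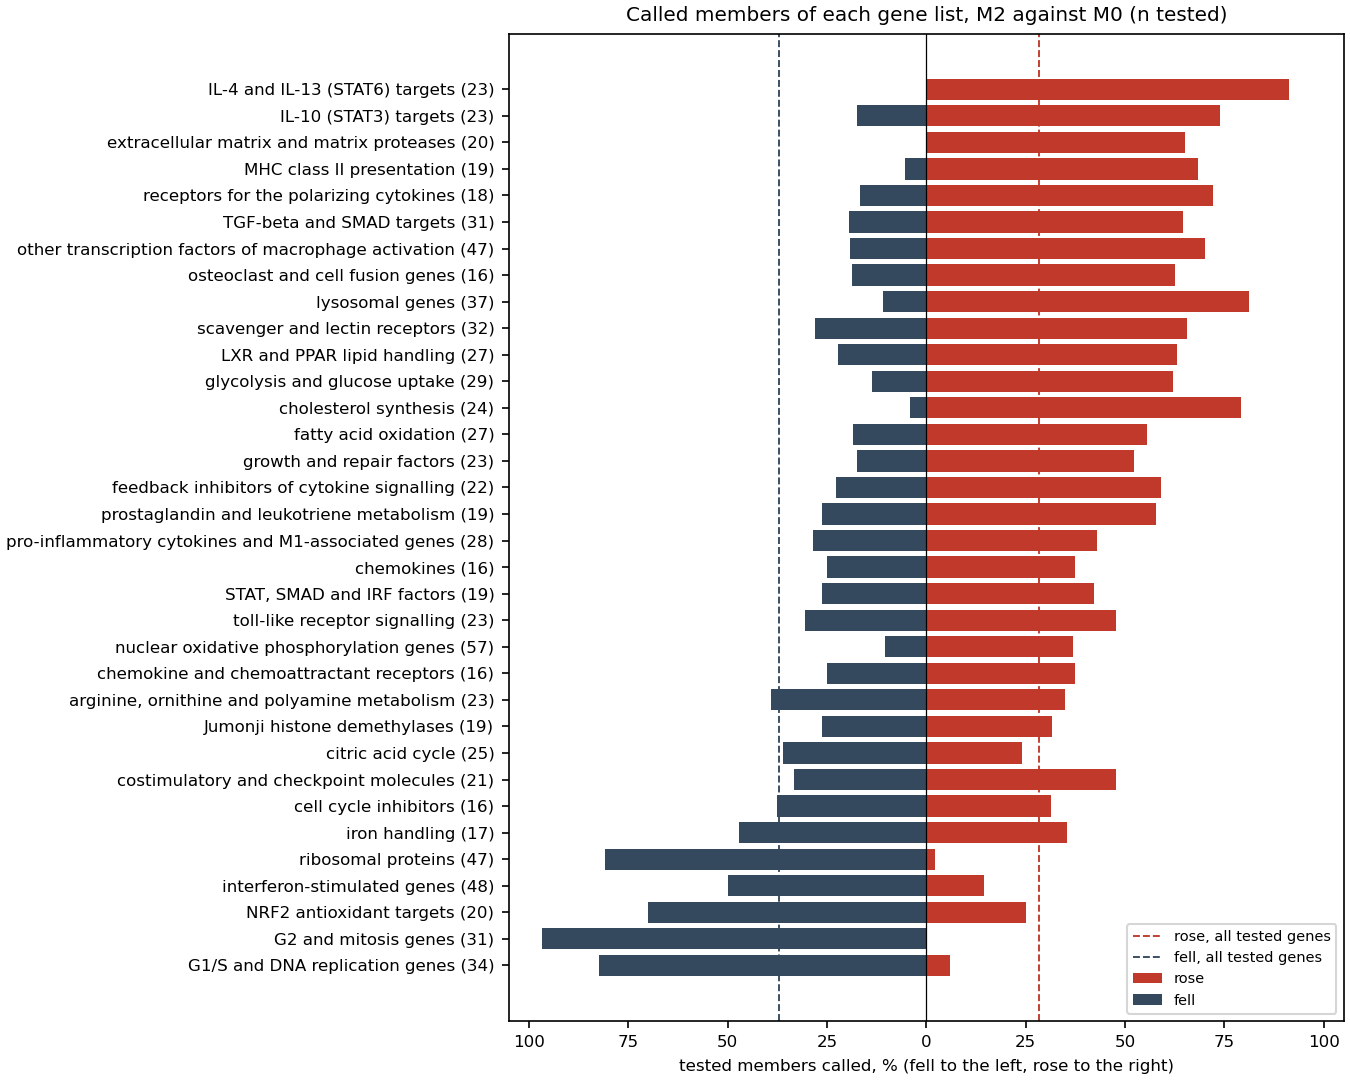
Share of tested members of each of 34 gene lists called higher (red, to the right) or lower (dark blue, to the left) in M2 than in M0 control cells, in percent, with the number of tested members in brackets and lists ordered by median log2 fold change. Dashed lines mark the shares over all tested genes, 28.4% higher and 37.0% lower. Many lists pass the red line by far. They include IL-4, IL-10 and TGF-beta targets, receptors, MHC class II, lysosome and cholesterol synthesis. Other transcription factors, scavenger receptors, matrix, LXR and PPAR lipid handling and glycolysis do so too. The G2, G1/S, ribosomal, NRF2, interferon-stimulated and iron lists pass the dark blue line. With trimmed-mean factors 17 of 47 ribosomal genes fell.

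Other transcription factors of macrophage activation rose in most cases: of 47 tested, 33 rose, 9 fell and 5 were not called, 18 rising and 2 falling by 2-fold or more, with a median of 0.63. Fosl2 had 53.3, 54.8 and 52.2 TPM in M2 libraries, against 11.96, 10.7 and 10.9 TPM in M0 libraries, and Junb had 359.6, 355 and 353 TPM in M2 libraries, against 86.5, 85.9 and 82.8 TPM in M0 libraries; both encode AP-1 subunits. Cebpa, which encodes a myeloid C/EBP factor, had 38.0, 35.6 and 34.5 TPM in M2 libraries, against 8.13, 8.17 and 9.27 TPM in M0 libraries. The M2 and M0 libraries did not overlap for any of the 3 genes, and the log2 fold changes were 2.16 for Fosl2, 2.05 for Junb and 1.96 for Cebpa, all at limma adjusted p-values of 1.39e-13 or less. The lipid sensor LXR alpha, gene Nr1h3, reached 10.9 ± 0.80 TPM under M2 and 2.93 ± 0.23 TPM without stimulation, and Batf3, which had 1.70, 1.33 and 1.87 TPM in M2 libraries, was listed at 0 in all 3 M0 libraries. The lineage factor Spi1, PU.1, rose by a small amount to 478 ± 13.6 TPM in M2 cells, against 332 ± 7.0 TPM in M0 cells.

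The MHC class II pathway was switched on at low levels. Of 19 tested, 13 rose, 1 fell and 5 were not called, with a median of 1.02 and 10 rises of 2-fold or more. Ciita, which encodes the master activator of this gene set, had 28.0, 29.2 and 27.8 TPM in M2 libraries, against 0.0700, 0.0800 and 0.0600 TPM in M0 libraries. H2-Aa had 10.5, 9.89 and 8.87 TPM in M2 libraries and was listed at 0 in all 3 M0 libraries. H2-Ab1 had 5.92, 6.43 and 6.57 TPM in M2 libraries, against 0.530, 0.440 and 0.340 TPM in M0 libraries, and H2-Eb1 had 3.47, 4.04 and 3.86 TPM in M2 libraries, against 0.0700, 0 and 0.0600 TPM in M0 libraries; these 3 genes encode chains of the class II molecules. H2-DMb1, which encodes a chain of the peptide-loading factor, had 2.72, 3.42 and 3.74 TPM in M2 libraries, against 0.240, 0 and 0 TPM in M0 libraries. March1, a ubiquitin ligase that removes class II molecules from the surface, reached 13.8 ± 0.40 TPM under M2 and 1.38 ± 0.055 TPM without stimulation. In each of these genes every M2 library was above every M0 library. The log2 fold changes were 4.78 ± 0.074 (SE, limma adjusted p = 7.49e-21) for Ciita, 2.35 ± 0.085 (SE, limma adjusted p = 4.60e-15) for H2-Ab1, 2.20 ± 0.086 (SE, limma adjusted p = 1.52e-14) for H2-Eb1, 1.99 ± 0.11 (SE, limma adjusted p = 7.49e-12) for H2-DMb1 and 2.64 ± 0.072 (SE, limma adjusted p = 5.19e-17) for March1. The limma adjusted p of H2-Aa, for which no fold is given against a group at 0, was 3.11e-16. The invariant chain gene Cd74, added after its values were seen, was far more abundant, at 867 ± 40.5 TPM under M2 and 506 ± 12.6 TPM without stimulation. Reads shared by MHC paralogs may have been split between them, so the single values are uncertain.

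Costimulatory and checkpoint genes moved both ways. Of 21 tested, 10 rose, 7 fell and 4 were not called, 6 rising and 6 falling by 2-fold or more, with a median of -0.030. Cd274 had 79.1, 75.0 and 74.5 TPM in M2 libraries, against 3.39, 3.71 and 3 TPM in M0 libraries, and Pdcd1lg2 had 19.5, 15.7 and 17.2 TPM in M2 libraries, against 0.0700, 0.0300 and 0.0800 TPM in M0 libraries; they encode the ligands PD-L1 and PD-L2 of the inhibitory receptor PD-1. Both were higher in each M2 library. Cd274 rose by 4.15 ± 0.055 log2 units (SE, limma adjusted p = 9.47e-22) and Pdcd1lg2 by 4.12 ± 0.083 (adjusted p = 3.70e-19). The inhibitory receptor genes Cd200r1, at 35.7 ± 1.5 TPM under M2 and 4.08 ± 0.52 TPM without stimulation, and Havcr2, which encodes TIM-3, at 256 ± 7.3 TPM under M2 and 35.2 ± 2.0 TPM without stimulation, also rose. So did Cd40, a receptor for T cell help, at 27.7 ± 1.9 TPM under M2 and 5.04 ± 0.46 TPM without stimulation. Tnfsf9, a TNF-family costimulatory ligand, fell to 42.9, 45.6 and 46.1 TPM in the M2 libraries, against 218, 228 and 221 TPM in the M0 libraries (log2 fold change -2.29 ± 0.043 SE, limma adjusted p = 1.34e-19). The CD28 ligand gene Cd86 fell to 5.36 ± 0.57 TPM in M2 cells, against 11.7 ± 0.90 TPM in M0 cells (log2 fold change -1.004 ± 0.065 SE, limma adjusted p = 4.49e-11).

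Among 32 tested scavenger and lectin receptors 21 rose, 9 fell and 2 were not called, and the median was 0.39. Cd36, which encodes a receptor for oxidized lipoproteins and fatty acids, had 29.7, 34.6 and 32.9 TPM in M2 libraries, against 0.210, 0.240 and 0.450 TPM in M0 libraries. Stab1, which encodes the endocytic receptor stabilin, had 9.29, 9.64 and 9.08 TPM in M2 libraries, against 0.240, 0.160 and 0.230 TPM in M0 libraries. Olr1, which encodes the lectin-type receptor for oxidized lipoprotein, had 5.74, 6.17 and 5.65 TPM in M2 libraries and was listed at 0 in all 3 M0 libraries. No M2 library fell within the M0 range; the log2 fold changes were 4.68 ± 0.067 (SE, limma adjusted p = 2.64e-21) and 3.09 ± 0.094 (SE, limma adjusted p = 2.39e-16), and the limma adjusted p of Olr1 was 4.01e-16. Clec12a, an inhibitory lectin receptor, was the main exception, at 8.91 ± 1.1 TPM under M2 and 51.0 ± 1.7 TPM without stimulation (log2 fold change -2.40 ± 0.072 SE, limma adjusted p = 2.47e-16). The macrophage surface marker Adgre1, F4/80, rose to 297, 289 and 276 TPM in the M2 libraries, against 47.4, 47.4 and 49.4 TPM in the M0 libraries (log2 fold change 2.55 ± 0.041 SE, limma adjusted p = 1.21e-20), and Cd68 to 883 ± 30.1 TPM in M2 cells, against 689 ± 25.8 TPM in M0 cells.

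Receptors for chemoattractants moved in both directions. Of 16 tested receptors 6 rose, 4 fell and 6 were not called, against 28.4% higher and 37.0% lower over all tested genes. All 6 rises were of 2-fold or more. Ltb4r1, which encodes the high-affinity leukotriene B receptor, had 98.3, 106 and 94.5 TPM in M2 libraries, against 0.180, 0.450 and 0.430 TPM in M0 libraries. Ccr1, which encodes a receptor of inflammatory CC chemokines, had 19.1, 18.4 and 18.9 TPM in M2 libraries, against 0.300, 0.400 and 0.410 TPM in M0 libraries. Cxcr4, which encodes the receptor for CXCL12, had 67.2, 66.0 and 64.9 TPM in M2 libraries, against 2.99, 3.25 and 3.08 TPM in M0 libraries. All 3 were higher in each M2 library than in any M0 library. Ltb4r1 rose by 6.22 ± 0.10 log2 units (SE, limma adjusted p = 1.57e-20), Ccr1 by 3.85 ± 0.067 (adjusted p = 3.88e-20) and Cxcr4 by 4.03 ± 0.11 (adjusted p = 5.02e-17). The complement receptor gene C3ar1 reached 79.9 ± 3.6 TPM under M2 and 11.2 ± 0.70 TPM without stimulation and Ccr2, the receptor of monocyte recruitment, 253 ± 5.0 TPM under M2 and 101.3 ± 5.7 TPM without stimulation, while the fractalkine receptor gene Cx3cr1 fell to 243 ± 4.6 TPM in M2 cells, against 366 ± 2.1 TPM in M0 cells.

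Of 16 tested chemokine genes 6 rose, 4 fell and 6 were not called, with a median of 0.061. Over all tested genes 28.4% were higher and 37.0% lower. Ccl9, which encodes a macrophage chemokine, had 9.73, 9.41 and 9.77 TPM in M2 libraries, against 99.99, 109.7 and 109 TPM in M0 libraries. Cxcl16, which encodes a protein that acts both as a chemokine and as a scavenger receptor, had 132, 125 and 128 TPM in M2 libraries, against 20.3, 17.5 and 19.9 TPM in M0 libraries. The groups were apart in opposite directions. Ccl9 fell by 3.33 ± 0.040 log2 units (SE, limma adjusted p = 1.68e-22) and Cxcl16 rose by 2.68 ± 0.046 (adjusted p = 3.66e-20). Cxcl14 reached 8.12 ± 0.41 TPM under M2 and 2.59 ± 0.33 TPM without stimulation. Ccl3, whose reads may be shared with its paralog Ccl4, fell to 61.6 ± 4.7 TPM in M2 cells, against 139 ± 1.1 TPM in M0 cells (log2 fold change -1.16 ± 0.057 SE, limma adjusted p = 2.83e-12). Ccl5 was called higher (limma adjusted p = 0.0304) with 12.5, 39.6 and 3.82 TPM in M2 libraries 1, 2 and 3 and 3.37, 3.92 and 4.73 TPM in M0 libraries, but its M1 mean was 15289 TPM, and the adjusted p was 0.122 without M2 library 2. When genes below 1% of their M1 mean were left out of the calls, a choice made after seeing the data, 3 chemokines were counted as higher.

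Growth and repair factors and matrix genes rose in part. Of 23 tested growth and repair factors 12 rose, 4 fell and 7 were not called (median 0.20), and 9 were counted as higher without genes below 1% of their M1 mean. Of 20 matrix and protease genes 13 rose, 0 fell and 7 were not called (median 1.06). Igf1, which encodes insulin-like growth factor 1, had 395, 376 and 368 TPM in M2 libraries, against 35.9, 42.0 and 38.5 TPM in M0 libraries. Pdgfa, which encodes a platelet-derived growth factor chain, had 46.6, 44.4 and 50.1 TPM in M2 libraries, against 1.5, 1.58 and 0.900 TPM in M0 libraries. Adam8, which encodes a surface metalloprotease, had 185, 179.9 and 177 TPM in M2 libraries, against 32.7, 31.1 and 33.1 TPM in M0 libraries. All M2 libraries lay above all M0 libraries. Igf1 rose by 3.26 ± 0.065 log2 units (SE, limma adjusted p = 5.46e-19), Pdgfa by 4.38 ± 0.12 (adjusted p = 7.76e-17) and Adam8 by 2.45 ± 0.045 (adjusted p = 9.16e-20). Hbegf, an EGF receptor ligand, was at 4.66 ± 0.27 TPM under M2 and 0, 0.0400 and 0.0800 TPM by library without stimulation, the TWEAK gene Tnfsf12 at 5.82 ± 0.45 TPM under M2 and 0.600 ± 0.24 TPM without stimulation and the urokinase gene Plau at 207 ± 2.9 TPM under M2 and 66.4 ± 0.77 TPM without stimulation. The stress cytokine gene Gdf15 was lower, at 0.720 ± 0.41 TPM under M2 and 2.39 ± 0.35 TPM without stimulation. Fibrillar collagen genes were not part of this rise: Col1a1, Col1a2 and Col3a1 stayed below 1 TPM in all 6 libraries.

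Genes of arginine metabolism moved in both directions. Of 23 tested genes of arginine, ornithine and polyamine metabolism 8 rose, 9 fell and 6 were not called, with a median of 0.016, near that of all genes. The counts were also near the shares over all tested genes, 28.4% higher and 37.0% lower. Gatm, which makes the creatine precursor from arginine, had 628, 629 and 636 TPM in the M2 libraries and 144, 154 and 154 TPM in the M0 libraries, without overlap (log2 fold change 2.06 ± 0.066 SE, limma adjusted p = 2.89e-15). The mitochondrial arginase gene Arg2 also rose, from a low level, with 1.55, 1.57 and 0.890 TPM in M2 libraries, against 0.440, 0.450 and 0.700 TPM in M0 libraries (log2 fold change 0.60 ± 0.11 SE, limma adjusted p = 6.67e-05). The ornithine decarboxylase antizyme gene Oaz2 reached 50.3 ± 1.8 TPM under M2 and 29.2 ± 0.61 TPM without stimulation, and the proline synthesis gene Pycr1 fell to 4.69 ± 0.50 TPM in M2 cells, against 9.91 ± 0.77 TPM in M0 cells. Azin2, an antizyme inhibitor, and Hal, the enzyme that starts histidine breakdown, were among the 20 largest rises of all genes, at 47.5 ± 1.8 TPM under M2 and 1.61 ± 0.60 TPM without stimulation and 46.6 ± 3.1 TPM under M2 and 0.707 ± 0.27 TPM without stimulation. Il4i1, an amino acid oxidase induced by IL-4, had 64.2, 62.8 and 59.8 TPM in M2 libraries, against 0.470, 0 and 0 TPM in the M0 libraries (log2 fold change 5.797 ± 0.20 SE, limma adjusted p = 8.97e-13).

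Lipid genes moved upward in most lists. Of 27 tested genes of LXR and PPAR lipid handling 17 rose, 6 fell and 4 were not called (median 0.36), of 27 of fatty acid oxidation 15 rose, 5 fell and 7 were not called (median 0.21), and of 24 of cholesterol synthesis 19 rose, 1 fell and 4 were not called (median 0.25) with none past 2-fold. Ch25h, cholesterol 25-hydroxylase, was at 3.63, 3.81 and 4.39 TPM in the M2 libraries and listed at 0 in all 3 M0 libraries. Pltp, the phospholipid transfer protein gene, rose to 267 ± 1.1 TPM in M2 cells, against 81.5 ± 5.6 TPM in M0 cells (log2 fold change 1.70 ± 0.082 SE, limma adjusted p = 4.35e-12). The acid lipase gene Lipa rose to 520.1 ± 6.8 TPM in M2 cells, against 204 ± 6.3 TPM in M0 cells (log2 fold change 1.34 ± 0.027 SE, limma adjusted p = 3.00e-19). Lipoprotein lipase, Lpl, fell to 47.1 ± 0.78 TPM in M2 cells, against 165 ± 2.4 TPM in M0 cells (log2 fold change -1.79 ± 0.044 SE, limma adjusted p = 8.20e-18), and its inhibitor Angptl4 fell with it to 3.60 ± 0.91 TPM in M2 cells, against 13.2 ± 0.54 TPM in M0 cells. Among the oxidation genes the medium-chain dehydrogenase gene Acadm rose, with 112 ± 3.7 TPM under M2 and 55.2 ± 0.60 TPM without stimulation. In cholesterol synthesis the sterol reductase gene Tm7sf2 reached 19.3 ± 1.7 TPM under M2 and 9.57 ± 1.2 TPM without stimulation and Nsdhl 109.7 ± 0.87 TPM under M2 and 62.5 ± 1.7 TPM without stimulation.

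Of 29 tested genes of glycolysis and glucose uptake 18 rose, 4 fell and 7 were not called (median 0.28). Pfkfb4, which makes the activator of phosphofructokinase, was well ahead of the others, with 84.6, 86.2 and 79.8 TPM in the M2 libraries and 12.6, 12 and 11.4 TPM in the M0 libraries (log2 fold change 2.70 ± 0.051 SE, limma adjusted p = 1.20e-19). The aldolase gene Aldoc at 125 ± 5.6 TPM under M2 and 58.9 ± 1.1 TPM without stimulation, hexokinase Hk1 at 172 ± 2.7 TPM under M2 and 88.7 ± 3.5 TPM without stimulation and the glucose transporters Slc2a1 at 254 ± 6.3 TPM under M2 and 141 ± 6.1 TPM without stimulation and Slc2a6 at 322 ± 10.5 TPM under M2 and 166 ± 5.1 TPM without stimulation also rose. In the citric acid cycle 6 rose, 9 fell and 10 were not called of 25, near the shares over all tested genes, 28.4% higher and 37.0% lower. Cytosolic Idh1 rose by 0.54 log2 units with 225 ± 13.1 TPM under M2 and 155 ± 7.5 TPM without stimulation, whereas mitochondrial Idh2 fell by 0.54 with 215 ± 3.7 TPM under M2 and 313 ± 5.6 TPM without stimulation. Trimmed-mean factors turned the count of this cycle to 10 higher and 7 lower. Of 57 nuclear genes of oxidative phosphorylation 21 rose, 6 fell and 30 were not called (median 0.042), and 31 rose and 2 fell with trimmed-mean factors; the changes were small, Cox5b for one standing at 966 ± 26.3 TPM under M2 and 825 ± 37.8 TPM without stimulation.

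Of 19 tested eicosanoid genes, which encode enzymes and receptors, 11 rose, 5 fell and 3 were not called (median 0.17). By 2-fold or more 5 rose, among them Ptgs2, whose call depended on the fit, and 1 fell, Hpgd. Ptgs1, which encodes the constitutive cyclooxygenase, had 62.8, 58.0 and 58.4 TPM in M2 libraries, against 6.49, 7.47 and 6.96 TPM in M0 libraries. Tbxas1, which encodes thromboxane synthase, had 18.4, 17.4 and 16.4 TPM in M2 libraries, against 0.870, 1.10 and 0.740 TPM in M0 libraries. Ltc4s, which encodes leukotriene C synthase, had 56.9, 50.4 and 50.8 TPM in M2 libraries, against 8.29, 4.84 and 8.04 TPM in M0 libraries. Each M2 library was above each M0 library. Ptgs1 rose by 2.93 ± 0.092 log2 units (SE, limma adjusted p = 4.40e-16), Tbxas1 by 3.28 ± 0.11 (adjusted p = 1.63e-15) and Ltc4s by 2.77 ± 0.18 (adjusted p = 1.72e-09). Alox5ap, the activating protein of arachidonate lipoxygenase, stood at 615 ± 5.2 TPM under M2 and 296 ± 14.3 TPM without stimulation. Hpgd, which breaks prostaglandins down, fell to 3.48, 2.57 and 3.85 TPM in the M2 libraries, against 139.7, 116 and 140.3 TPM in the M0 libraries (log2 fold change -4.96 ± 0.14 SE, limma adjusted p = 5.70e-15). Ptgs2, the inducible cyclooxygenase, was at 6.62, 15.9 and 1.08 TPM in M2 libraries 1, 2 and 3 and at 0.290, 0.370 and 1.48 TPM in the M0 libraries (limma adjusted p = 0.00872, and 0.123 when only the M2 and M0 libraries were fitted).

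The lysosome list was among those with the largest share of rises: of 37 tested genes 30 rose, 4 fell and 3 were not called, with a median of 0.41. Ctsd had 1845, 2012 and 1905 TPM in M2 libraries, against 653, 666 and 625 TPM in M0 libraries, and Ctsc had 218, 221 and 221 TPM in M2 libraries, against 76.2, 79.4 and 79.9 TPM in M0 libraries; they encode lysosomal proteases. The groups were apart for both. Ctsd rose by 1.57 ± 0.035 log2 units (SE, limma adjusted p = 2.06e-18) and Ctsc by 1.48 ± 0.035 (adjusted p = 5.42e-18). Ctsf and Ctsh, further cathepsins, stood at 95.2 ± 2.3 TPM under M2 and 31.8 ± 1.7 TPM without stimulation and at 10.3 ± 0.25 TPM under M2 and 2.46 ± 0.23 TPM without stimulation. Of 16 osteoclast and cell fusion genes 10 rose, 3 fell and 3 were not called (median 0.47), RAW264.7 being a line that can form osteoclasts. Acp5, tartrate-resistant acid phosphatase, was at 20, 20.9 and 19.4 TPM in the M2 libraries and 1.48, 2.25 and 1.62 TPM in the M0 libraries (log2 fold change 2.93 ± 0.13 SE, limma adjusted p = 1.86e-13), and the fusion gene Ocstamp at 14.4 ± 1.6 TPM under M2 and 3.503 ± 0.25 TPM without stimulation. Its partner Dcstamp fell to 0.410 ± 0.18 TPM in M2 cells, against 3.51 ± 0.37 TPM in M0 cells, and carbonic anhydrase Car2 to 10.9 ± 0.97 TPM in M2 cells, against 77.7 ± 8.5 TPM in M0 cells. Calcr was listed at 0 in all 6 libraries, Ctsk reached 0.777 ± 0.21 TPM under M2 and 0.123 ± 0.10 TPM without stimulation, and the osteoclast factor Nfatc1 was not called at 45.0 ± 3.7 TPM under M2 and 49.8 ± 1.9 TPM without stimulation.

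Iron genes moved both ways, and most NRF2 targets, genes of the antioxidant response, fell. Of 17 tested iron genes 6 rose, 8 fell and 3 were not called (median -0.044), and of 20 NRF2 targets 5 rose, 14 fell and 1 was not called (median -0.24). Fth1, which encodes the ferritin heavy chain, had 2016, 2046 and 2031 TPM in M2 libraries, against 4735, 4879 and 4437 TPM in M0 libraries. Slc40a1, which encodes the iron exporter ferroportin, had 0.150, 0.220 and 0.250 TPM in M2 libraries, against 3.65, 3.70 and 3.98 TPM in M0 libraries. Every M2 library was below every M0 library. Fth1 fell by 1.20 ± 0.036 log2 units (SE, limma adjusted p = 2.01e-16) and Slc40a1 by 1.99 ± 0.071 (adjusted p = 3.45e-15). Hp, haptoglobin, fell to 1.48, 2.41 and 1.30 TPM in the M2 libraries, against 15.7, 18.6 and 16.1 TPM in the M0 libraries, and transferrin and its receptor, Trf and Tfrc, fell to 1.70 ± 0.17 TPM and 61.2 ± 5.3 TPM in M2 cells, against 5.24 ± 0.24 TPM and 103 ± 2.9 TPM in M0 cells. The NRF2 gene Nfe2l2 was at 75.1 ± 0.80 TPM under M2 and 150.03 ± 0.62 TPM without stimulation and the cystine transporter gene Slc7a11 at 6.95 ± 0.34 TPM under M2 and 17.3 ± 0.71 TPM without stimulation. Gclm, a subunit of the enzyme that starts glutathione synthesis, went against its list at 90.7 ± 0.69 TPM under M2 and 35.8 ± 3.6 TPM without stimulation (log2 fold change 1.32 ± 0.057 SE, limma adjusted p = 6.94e-14).

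Inflammatory genes showed no common direction. Of 28 tested cytokine and M1-associated genes 12 rose, 8 fell and 8 were not called, with a median of 0.12. Ltb had 0.770, 1.76 and 0.810 TPM in M2 libraries, against 124, 139 and 128 TPM in M0 libraries, the largest fall of all named genes, and Tnf had 10.6, 12.3 and 10.2 TPM in M2 libraries, against 73.8, 75.2 and 72.2 TPM in M0 libraries; both encode cytokines of the TNF family. All M2 libraries were lower. Ltb fell by 5.99 ± 0.17 log2 units (SE, limma adjusted p = 2.55e-13) and Tnf by 2.64 ± 0.058 (adjusted p = 3.17e-18). Irg1, the itaconate-producing enzyme, was at 10.3 ± 4.4 TPM under M2 and 2.21 ± 0.29 TPM without stimulation. Nos2 had 2.04, 5.24 and 0.230 TPM in M2 libraries 1, 2 and 3 and 0.360, 0.330 and 0.600 TPM in the M0 libraries, Il6 had 1.56, 1.46 and 0.0900 TPM in M2 libraries, against 0, 0 and 0.190 TPM in M0 libraries, and Il1b had 0.950, 1.35 and 0.440 TPM in M2 libraries, against 0, 0.0800 and 0.150 TPM in M0 libraries. The M1 means of these 3 genes were 3572, 1550.2 and 337 TPM, so their M2 levels were below 1% of the M1 level, and their limma adjusted p-values were 0.0487, 0.0117 and 8.66e-04. Without M2 library 2 the Nos2 value was 0.228, and without library 1 or 2 that of Il6 was 0.0573 and 0.0562. With genes below 1% of their M1 mean left out, 4 of the list were counted as higher. The part of an M1 trace in these values was not tested.

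Among 23 tested toll-like receptor genes 11 rose, 7 fell and 5 were not called. Tlr4, the endotoxin receptor, rose to 149.9, 141 and 139 TPM in the M2 libraries, against 53.7, 54.1 and 59.2 TPM in the M0 libraries (log2 fold change 1.35 ± 0.049 SE, limma adjusted p = 5.26e-15), opposite to its coreceptor Cd14. The nucleic acid sensors Tlr8 at 2.71 ± 0.093 TPM under M2 and 0.133 ± 0.029 TPM without stimulation and Tlr9 at 11.3 ± 0.39 TPM under M2 and 4.69 ± 0.20 TPM without stimulation were higher and Tlr7 at 53.0 ± 4.9 TPM under M2 and 87.9 ± 4.2 TPM without stimulation was lower. Interferon-stimulated genes fell more often than they rose: 7 rose, 24 fell and 17 were not called of 48 (median -0.17), and 9 rose and 20 fell with trimmed-mean factors. Without M2 library 3, 13 rose. Rtp4, a chaperone of G protein-coupled receptors, and Ifi44 fell to 2.29 ± 0.80 TPM and 5.31 ± 0.22 TPM in M2 cells, against 11.8 ± 0.22 TPM and 20.5 ± 0.86 TPM in M0 cells. The viral RNA sensor gene Oas2 had 7.71 ± 0.11 TPM under M2 and 16.8 ± 2.0 TPM without stimulation, and the nucleic acid sensor gene Zbp1 went the other way with 6.69 ± 0.49 TPM under M2 and 2.10 ± 0.54 TPM without stimulation. Their log2 fold changes were -1.99 ± 0.17 (SE, limma adjusted p = 9.22e-08), -1.77 ± 0.081 (SE, limma adjusted p = 7.06e-13), -1.03 ± 0.065 (SE, limma adjusted p = 3.86e-11) and 1.32 ± 0.087 (SE, limma adjusted p = 8.64e-11).

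Cell cycle genes fell by modest amounts but nearly all together. Of 31 tested genes of G2 and mitosis 0 rose, 30 fell and 1 was not called (median -0.44), and of 34 of G1/S and replication 2 rose, 28 fell and 4 were not called (median -0.48), with none of the falls reaching 2-fold. Aurkb, which encodes a mitotic kinase, had 90.5, 90.0 and 95.8 TPM in M2 libraries, against 148, 143 and 152 TPM in M0 libraries. Tk1, which encodes thymidine kinase, had 162, 156 and 159 TPM in M2 libraries, against 285, 289 and 272 TPM in M0 libraries. Ccnd2, which encodes cyclin D2, had 23.1, 21.7 and 20.6 TPM in M2 libraries, against 40.5, 44.1 and 42.7 TPM in M0 libraries. The M2 libraries were below the M0 libraries throughout. Aurkb fell by 0.68 ± 0.10 log2 units (SE, limma adjusted p = 1.90e-05), Tk1 by 0.82 ± 0.099 (adjusted p = 1.29e-06) and Ccnd2 by 0.93 ± 0.059 (adjusted p = 3.34e-11). Cyclin D3 went against its relatives: Ccnd3 had 240.4, 235 and 228 TPM in M2 libraries, against 116, 119.5 and 112 TPM in M0 libraries, without overlap (log2 fold change 1.01 ± 0.042 SE, limma adjusted p = 3.48e-14). Of 16 cell cycle inhibitors 5 rose, 6 fell and 5 were not called, near the shares over all tested genes, 28.4% higher and 37.0% lower. The rises were led by the growth arrest genes Gadd45g at 21.9 ± 2.0 TPM under M2 and 1.03 ± 0.13 TPM without stimulation and Gadd45b at 48.1 ± 2.1 TPM under M2 and 9.27 ± 1.2 TPM without stimulation. Btg1 and Btg2, antiproliferative factors, fell to 26.9 ± 0.65 TPM and 24.3 ± 0.65 TPM in M2 cells, against 60.2 ± 5.1 TPM and 41.0 ± 1.7 TPM in M0 cells. Ribosomal protein genes fell slightly, 38 of 47 with a median of -0.13, and 17 with trimmed-mean factors.

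Jumonji histone demethylases, the family of the gene targeted in the series, had no common direction in control cells: 6 rose, 5 fell and 8 were not called of 19 (median 0.011). Over all tested genes 28.4% were higher and 37.0% lower. Kdm7a had 24.5, 23.3 and 22.2 TPM in M2 libraries, against 11.3, 11.03 and 10.96 TPM in M0 libraries, which the M2 libraries exceeded without overlap (log2 fold change 1.01 ± 0.068 SE, limma adjusted p = 1.06e-10). Kdm5b, a demethylase of histone H3, rose by more, to 23.6 ± 0.53 TPM in M2 cells, against 8.46 ± 0.19 TPM in M0 cells (log2 fold change 1.38 ± 0.073 SE, limma adjusted p = 2.11e-12), and Kdm6b, another demethylase of histone H3 known for its induction by IL-4, reached 19.8 ± 2.3 TPM under M2 and 11.9 ± 1.1 TPM without stimulation (log2 fold change 0.69 ± 0.084 SE, limma adjusted p = 5.63e-07). Phf8, a close relative of Kdm7a, fell to 20.7 ± 0.26 TPM in M2 cells, against 46.2 ± 0.41 TPM in M0 cells (log2 fold change -1.12 ± 0.053 SE, limma adjusted p = 3.13e-13).

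**Figure D4:**
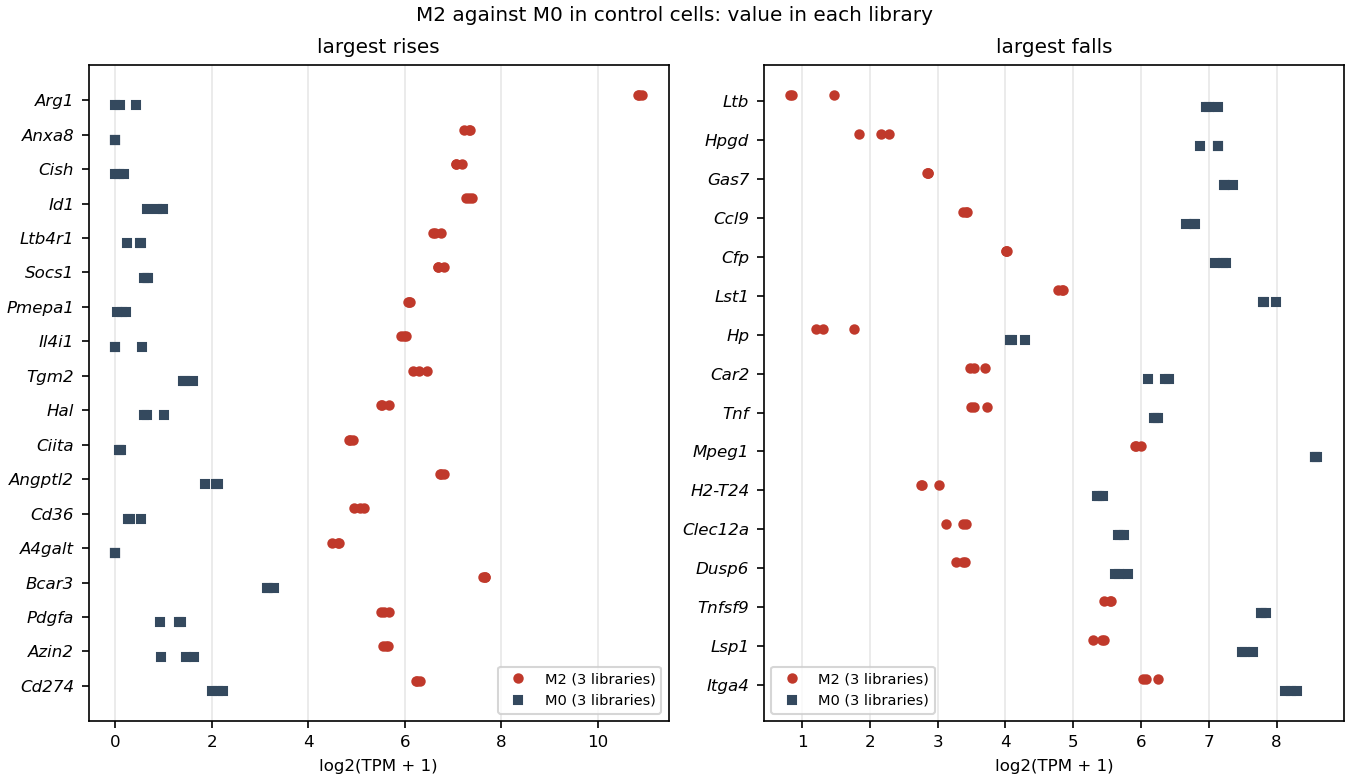
Values of each library, as log2(TPM + 1), for 18 of the 20 genes with the largest rises (left) and 16 of the 20 with the largest falls (right), those described in the text, with M2 libraries as red circles and M0 libraries as dark blue squares. The 3 libraries of a group lie close together. The groups do not overlap in any gene shown, because genes with overlap were left out when these were chosen.

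Several of the largest rises belong to none of these lists. Anxa8, which encodes an annexin, had 148, 161 and 162 TPM in M2 libraries and was listed at 0 in all 3 M0 libraries. Bcar3, which encodes an adaptor of Cas-family signalling, had 202, 201 and 195 TPM in M2 libraries, against 7.81, 8.75 and 7.92 TPM in M0 libraries. Angptl2, which encodes a secreted angiopoietin-like protein, had 107, 112 and 106 TPM in M2 libraries, against 3.23, 3.36 and 2.62 TPM in M0 libraries. None of the groups overlapped, which was a condition for a place among these rises. Bcar3 rose by 4.45 ± 0.053 (SE, limma adjusted p = 1.48e-22), Angptl2 by 4.75 ± 0.082 (SE, limma adjusted p = 3.57e-20), and the limma adjusted p of Anxa8 was 1.41e-21. A4galt, which makes the globo-series glycolipids, was at 21.5, 24 and 23.5 TPM in the M2 libraries and listed at 0 in all 3 M0 libraries.

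In total 14 genes stood at 5 TPM or more in each M2 library and at 0.1 TPM or less in each M0 library. They were Anxa8, Ciita, A4galt, Pdcd1lg2, Prss46, Hr, Anpep, Tgfbi, H2-Aa, Wisp1, B3gnt7, H2-Ea-ps, Olr1 and Msx3. Hr, which encodes the corepressor hairless, itself a Jumonji-domain protein, had 12.7, 14 and 13.2 TPM in M2 libraries, against 0, 0.0200 and 0.0200 TPM in M0 libraries. Anpep, which encodes aminopeptidase N, the surface antigen CD13, had 12.6, 10.8 and 11.8 TPM in M2 libraries and was listed at 0 in all 3 M0 libraries. Wisp1, which encodes a secreted matricellular protein, had 9.92, 9.27 and 8.67 TPM in M2 libraries, against 0, 0.0200 and 0 TPM in M0 libraries. Those outside the lists and the 20 largest rises were chosen after their values were seen.

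The largest falls were fewer and came from another set of genes. Gas7, which encodes a cytoskeletal adaptor, had 6.17, 6.22 and 6.25 TPM in M2 libraries, against 163, 149 and 150.5 TPM in M0 libraries. Cfp, which encodes properdin of the complement system, had 15.1, 15.2 and 15.1 TPM in M2 libraries, against 147, 152 and 136 TPM in M0 libraries. Mpeg1, which encodes a pore-forming protein of the perforin family, had 59.7, 63.1 and 59.1 TPM in M2 libraries, against 379.7, 378 and 388 TPM in M0 libraries. Each M2 library was below each M0 library, which was a condition for a place among these falls. Gas7 fell by 4.43 ± 0.054 log2 units (SE, limma adjusted p = 2.00e-22), Cfp by 3.17 ± 0.057 (adjusted p = 6.69e-20) and Mpeg1 by 2.64 ± 0.042 (adjusted p = 1.10e-20). Lst1, a myeloid membrane protein, fell to 27.3 ± 0.86 TPM in M2 cells, against 233 ± 17.0 TPM in M0 cells. Dusp6, a phosphatase of ERK, fell to 9.23 ± 0.50 TPM in M2 cells, against 51.0 ± 3.5 TPM in M0 cells. The integrin gene Itga4 fell to 68.9 ± 5.8 TPM in M2 cells, against 296 ± 17.5 TPM in M0 cells, and the actin-binding protein gene Lsp1 to 40.9 ± 2.3 TPM in M2 cells, against 188 ± 10.95 TPM in M0 cells. The MHC-like gene H2-T24, with close paralogs, was at 6.22 ± 0.75 TPM under M2 and 41.0 ± 1.3 TPM without stimulation, and the lysozyme gene Lyz2, a macrophage marker, at 1981 ± 11.9 TPM under M2 and 3631 ± 90.4 TPM without stimulation (log2 fold change -0.87 ± 0.040 SE, limma adjusted p = 1.76e-13).

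Some neighbouring genes rose together. Among 19516 protein-coding genes with a RefSeq position, 584 of the 2-fold rises could be placed, and 135 of them sat in 62 runs of adjacent genes that all rose by 2-fold or more; 10 runs held 3 genes or more. Some runs are clusters of paralogs or overlapping genes, and the number was not set against that of other gene sets. On chromosome 19 Plgrkt, Cd274, Pdcd1lg2 and Ric1 formed a run of 4 genes between 29348599 and 29605921 of GRCm38, and Jak2 and Insl6 a nearby pair. On chromosome 16 Ciita and Dexi were such a pair, and Socs1 was followed by Tnp2 and Prm3, which are known as germ cell genes and stood at 3.15 ± 0.63 and 2.08 ± 0.15 TPM in M2 cells and at 0 TPM in each M0 library. On chromosome 17 the class II genes H2-Ab1, H2-Aa and H2-Eb1 made a run. How reads from overlapping genes or from transcription past a gene's end were assigned is not given in the sources used here, so values of the less abundant neighbours are uncertain. These runs were looked for after the calls were known.

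The Kdm7a-deficient line, whose libraries are separate from those of the control cells, gave a second measurement of the same stimulation. The targeted gene itself was lower there: Kdm7a stood at 6.80 ± 0.88 TPM under M2 and 3.37 ± 0.14 TPM without stimulation in knockout cells, against 23.3 ± 1.1 TPM under M2 and 11.1 ± 0.17 TPM without stimulation in control cells. There 8414 genes were called (72.9%), with 29.6% of tested genes higher and 43.2% lower. The change passed 2-fold upwards in 732 genes (6.34%) and downwards in 327 (2.83%). Of the 627 genes that rose by 2-fold in control cells, 617 were called higher in the knockout line, 559 of them by 2-fold or more, and 0 were called lower. Of the 196 falls, 192 were called lower, 170 by 2-fold or more, and 1 was called higher. Arg1 rose by 10.26 log2 units in knockout cells and 10.70 in control cells, Cish by 6.73 in knockout and 7.02 in control cells, Socs3 by 3.59 in knockout and 3.57 in control cells, and Jak2 by 2.81 in knockout and 2.75 in control cells. The difference was called for Cish (limma adjusted p = 0.0374) and not for Arg1 (limma adjusted p = 0.766). Arg1 levels were higher in knockout cells, at 5070 ± 137 TPM under M2 and 4.0 ± 3.1 TPM without stimulation. In control cells Arg1 stood at 1876 ± 57.5 TPM under M2 and 0.137 ± 0.18 TPM without stimulation. The difference between the responses of the lines was called for 1629 genes (14.1%), positive for 7.06% of tested genes and negative for 7.05%. It was called by 2-fold or more for 57 in the positive (0.494%) and 19 in the negative direction (0.165%). Among the 627 rises it was called for 297, with the rise larger in knockout cells for 212 and smaller for 85. Of the called differences 50.03% were positive, against 60.3% with trimmed-mean and 63.2% with median-ratio factors. Among the genes of the lists, Msr1 rose by 4.28 in knockout and 2.31 in control cells (difference 1.96, limma adjusted p = 6.01e-11), Tgm2 by 6.65 in knockout and 4.82 in control cells (adjusted p = 6.94e-08), and Cxcr4 by 2.59 in knockout and 4.03 in control cells (adjusted p = 1.72e-06). The number of clones behind each line is not stated, so other differences between the lines and the loss of Kdm7a cannot be told apart.

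**Figure D5:**
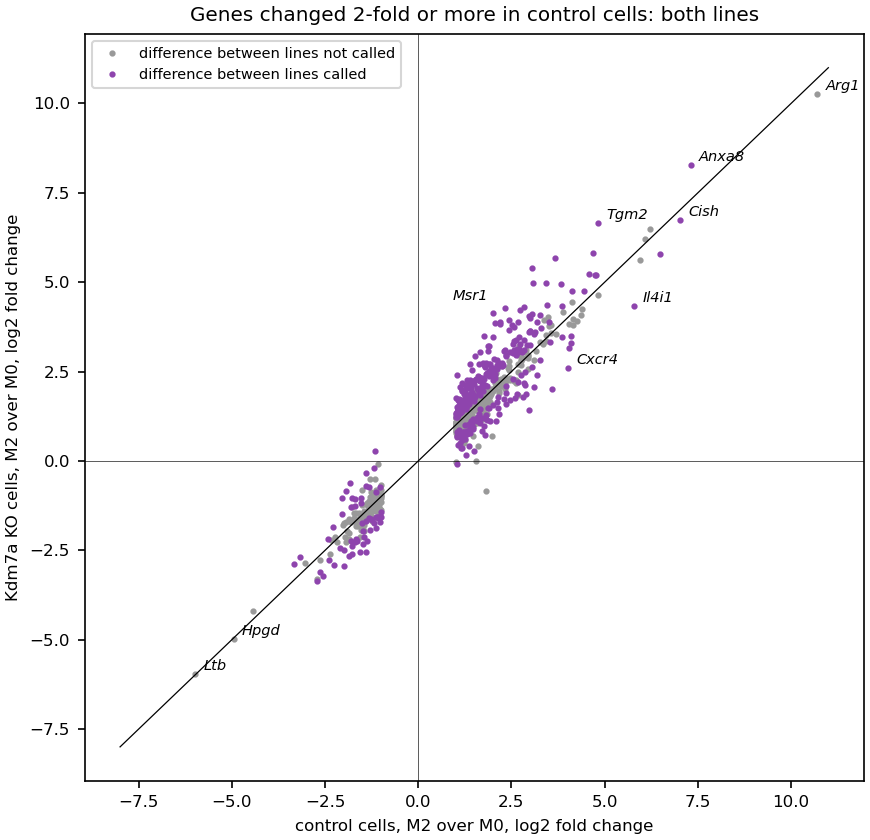
Log2 fold change of M2 over M0 in Kdm7a-deficient cells (vertical) and control cells (horizontal) for the 627 rises and 196 falls of 2-fold or more in control cells. Purple points are genes whose difference between the lines was called, grey points the others, and the line marks equal responses; nearly all points lie in the quadrants of equal direction.

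Set directly against the M1 libraries, M2 cells differed in 10320 genes (89.4%), with 59.0% of tested genes higher and 30.3% lower. Of the tested genes, 30.4% (3516) passed 2-fold upwards and 12.7% (1465) downwards. These counts depended on the scaling, with 2408 upwards and 2249 downwards under trimmed-mean factors and 2380 upwards and 2261 downwards under median-ratio factors. Of those called, 66.1% were higher in M2 cells, and 50.7% with trimmed-mean factors, which moved the median difference to 0.02 log2 units in place of 0.42. Some of the genes described above were thus high under M2 and not under M1, and others were high under both. Arg1 stood at 1876 ± 57.5 TPM under M2 and 2.37 ± 1.4 TPM under M1, a log2 difference of 9.24 (limma adjusted p = 1.16e-09). Igf1 stood at 379.8 ± 14.1 TPM under M2 and 5.54 ± 0.24 TPM under M1, a difference of 5.86 (limma adjusted p = 7.23e-24). The class II activator Ciita was at 28.3 ± 0.80 TPM under M2 and 0.0333 ± 0.012 TPM under M1. By contrast the PD-L1 gene Cd274 was at 76.2 ± 2.5 TPM under M2 and 595 ± 14.1 TPM under M1, and Socs3 at 181 ± 4.6 TPM under M2 and 791 ± 28.3 TPM under M1. Cd36, among the largest M2 rises, was higher still under M1, with 32.4 ± 2.5 TPM under M2 and 143 ± 7.2 TPM under M1. Kdm7a stood at 23.3 ± 1.1 TPM under M2 and 29.7 ± 0.85 TPM under M1, a difference of -0.34 (limma adjusted p = 1.28e-04).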

How the data were processed

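Poly(A) RNA libraries of 18 samples were grouped by title, and the library names in the labels tied table columns to samples. The deposited table gives TPM per gene symbol, computed by the authors; per the submitters' processing notes Trim Galore and mm10 were used. The aligner, quantifier, annotation and strand setting are not given in sources used here. TPM are shares of a fixed total, so strong rises lower all other values, and a gene listed at 0 may reflect a failed estimate. TPM carry no depth, so no counting interval was computed. The table held 24411 symbols, 7246 of them at 0 in all libraries, and 23194 matched RefSeq symbols.

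Tests used limma 3.58.1 (R 4.3.3) with trend and robust moderation on log2(TPM + 1), with 6 group means fitted over 18 libraries, for the 11548 genes that reached 1 TPM in 3 or more libraries, two-sided, with Benjamini-Hochberg adjustment over all genes and calls below 0.05. The design foresaw this test in case the table held TPM and not raw counts. The procedure was tested on simulated data. The members, the 34 gene lists, 11 cell type marker lists and the tests were chosen with earlier results of these data known.

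Named genes are the 20 largest rises and falls whose groups did not overlap and whose higher mean reached 5 TPM, without unnamed gene models; up to 6 called members with the largest change of each longer list; 15 polarization markers; cell type markers; and Kdm7a. Some genes that this rule names are not reported here. Alternatives were trimmed-mean (TMM) and median-ratio factors, computed on TPM, a pseudocount of 0.1 TPM, filtering at 5 TPM or not at all, no trend, only the groups compared, a replicate block, and each library left out. Paralogs such as histone, MHC and ribosomal protein genes may share reads. Promoter windows came from RefSeq (GRCm38.p6).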

Additional observations from a re-analysis of the deposited data

Results flagged for a closer look

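The M2 response was called different between the lines for 46.1% of 228 named and tested genes, most of which were chosen for a large M2 change, and for 14.1% of all tested genes. For 15 of the named genes it differed between the Kdm7a-deficient and the control line by 2-fold or more, with a limma adjusted p below 0.05 for the difference itself. Values are the log2 change in knockout cells minus that in control cells. Differences were positive for Msr1 (1.96, adjusted p = 6.01e-11), Tgm2 (1.83, 6.94e-08), Timp1 (1.47, 2.57e-07) and Cd36 (1.14, 7.50e-08). The class II genes H2-Eb1 (1.63), H2-Aa (1.54) and H2-DMb1 (1.47) also had larger rises in knockout cells, with adjusted p-values of 1.85e-08, 6.04e-07 and 3.19e-06. Further positive differences were those of Ocstamp (1.73), Hbegf (1.51), C3ar1 (1.49), Batf3 (1.33) and Il13ra2 (1.32). Ccl3 fell in control cells by 1.16 and had a log2 change of 0.27 in knockout cells, a difference of 1.43. Negative differences were those of Il4i1 (-1.46, adjusted p = 0.00276) and Cxcr4 (-1.44, 1.72e-06), which rose by less in knockout cells. Il4i1 still stood higher in knockout cells, at 76.7 ± 3.3 TPM under M2 and 2.91 ± 0.82 TPM without stimulation. In control cells Il4i1 stood at 62.2 ± 2.3 TPM under M2 and 0.157 ± 0.27 TPM without stimulation. Groups of 3 libraries are too small for a check of single libraries that stand apart.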

How the results depend on the processing

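Of 228 named and tested genes, 220 kept direction and call in M2 against M0 under all 14 alternatives run, and no named gene changed direction. Most of them were chosen for a large called change, so this share does not describe tested genes in general. Calls of Clec10a, Nos2, Il6, Ccl5, Ptgs2 and Xcr1 were lost in some of them, and Nfatc1 and Ptprc became called in some. With a pseudocount of 0.1 TPM the genes lower by 2-fold or more numbered 320 in control cells and 533 in knockout cells, and 53 for the difference between the lines; the cause was not tested. Against M1, genes lower by 2-fold or more numbered 2249 with TMM and 2261 with median-ratio factors, which move the median of that comparison. With each library left out in turn, the calls in control cells ranged over 7053 to 7171, those in knockout cells over 7991 to 8193, those for the difference between the lines over 1290 to 1984, and its 2-fold lower genes over 18 to 29, the last without control M2 library 3.

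Replicate numbers were not shown to pair libraries. Deviations of same-numbered M2 and M0 control libraries correlated at r = 0.0843, 0.116 and 0.0531, each library's highest correlation there being with its own number. In knockout cells the same-numbered values were -0.0188, -0.0140 and 0.122, and M2 library 2 with M0 library 1 gave the highest, 0.131. For control M2 with control M1 libraries the same-numbered values were -0.0899, -0.0388 and -0.0161. With a replicate block 7503 genes were called in control cells, against 7557 without, and 625 and 196 by 2-fold. Depth is unknown, so what it limits cannot be stated; values at 1 to 2 TPM carry the least certainty.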

Other observations

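Ranked by the difference in TPM and not by fold, the M2 change looked different. The largest gain was that of Srgn, which encodes the secretory granule proteoglycan serglycin, with a mean difference of 3473 TPM between M2 and M0 cells, followed by the actin gene Actb (2854 TPM), Arg1 (1876 TPM), the glutathione peroxidase gene Gpx1 (1526 TPM) and the protease gene Ctsd (1273 TPM). Ferritin chains parted: the light chain gene Ftl1 gained 1262 TPM, and the heavy chain gene Fth1 had a difference of -2653 TPM. The nucleolar gene Npm1 (-1827 TPM), the lysozyme gene Lyz2 (-1650.1 TPM) and the prothymosin gene Ptma (-1285 TPM) lost most of the others. Galectin 1, Lgals1, gained 1009 TPM, the annexin gene Anxa2 912 TPM and the osteopontin gene Spp1 828 TPM. These genes were chosen by their TPM difference after it was seen.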
